A study of Neogale vison with 6 samples.

Results

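The genes described are those of the proteasome and its assembly: every gene of the count table whose symbol starts with PSMA, PSMB, PSMC, PSMD, PSME, PSMF or PSMG followed by a number and nothing else, together with ADRM1, VCP, UFD1, NPLOC4 and NFE2L1. These symbols were found for 47 of the 24526 genes in the table. PSMA1, PSMA5, PSMC1, PSMC2, PSMD4, SEM1, PSMD9 and POMP belong to the same set, but no gene was found under these 8 symbols and they are not analysed here. The members fall into 12 subunits of the core particle, 15 of the regulatory particle and 20 genes outside both, which are alternative subunits, assembly factors, activators, an inhibitor, the VCP segregase and the transcription factor NFE2L1. The filter on low counts kept 44 of the 47 members, which were tested. The other 3, the testis subunit PSMA8, the immunoproteasome subunit PSMB8 and the thymus subunit PSMB11, had at most 1 read in any of the 6 libraries.

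RNA-seq was performed on Mv1Lu, an epithelial cell line from mink lung, in 3 libraries of control cells, which were left untreated, and 3 of cells after cholesterol depletion (CD). The CD cells were kept for 16 h with 50 μM lovastatin, a statin that inhibits HMG-CoA reductase, and 50 μM mevalonate, the product of that enzyme, in a medium whose serum, at 10%, was fetal calf serum deprived of lipoproteins (LPDS). The effects of the statin, the mevalonate and the serum cannot be told apart. The comparison addresses which transcripts differ between cells with and without this treatment.

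The proteasome is the barrel-shaped protease that degrades proteins tagged with ubiquitin. Its core particle is built of rings of alpha subunits, which gate the entry, and beta subunits, some of which carry the catalytic sites, and the regulatory particle caps the core, binds and unfolds the substrate and removes its ubiquitin. Cells adjust many of these genes together through NFE2L1, a transcription factor anchored in the endoplasmic reticulum (ER) that raises subunit genes when proteasome activity is short, while interferon replaces catalytic subunits by those of the immunoproteasome.

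The reads counted on genes ranged from 13473820 to 18633764 per library, and the reads assigned to no gene from 29.3% to 47.2%. Levels are given in CPM, the read count scaled to the size of its library after TMM normalization, and 3 reads correspond to 0.165 to 0.217 CPM. Log2 fold changes are CD relative to control, from the quasi-likelihood test of edgeR fitted to all 12148 genes that passed the filter, and a gene was called at a false discovery rate (FDR, Benjamini-Hochberg) under 0.05. The labels do not say whether the libraries came from separate cultures, so the p-values measure the spread between these libraries, which may be technical. CPM is not corrected for gene length, so levels are compared between libraries and not between genes. In bulk RNA, a change in all cells cannot be told apart from a change in some of them, nor fewer cells of a type from less RNA per cell. The sterol-responsive genes HMGCS1 and INSIG1 were higher in CD, with log2 fold changes of 3.43 and 1.67. Among epithelial markers, KRT19 averaged 936.0 CPM in control and 458.4 CPM in CD, CLDN4 0.603 and 7.03 CPM and TJP1 200.2 and 161.6 CPM, with log2 fold changes of -1.03, 3.55 and -0.31, of which those of KRT19 and CLDN4 were called. CDH1 and EPCAM had at most 6 reads in any library, and the surfactant genes SFTPB and SFTPC had 0. Of the other lung epithelial markers, SCGB1A1 averaged 1.41 and 0.598 CPM and was called lower (log2 fold change -1.21, edgeR FDR 0.0125), while NKX2-1, at 2 to 12 reads with all CD libraries below the control ones, SFTPD and FOXJ1 were too low to be tested. Of 4 fibroblast genes, 3 were lower, among them COL1A2 with 212.0 and 163.8 CPM. Of the leukocyte markers, CD68 averaged 5.45 and 19.7 CPM (log2 fold change 1.85), while PTPRC, which defines leukocytes, had 1 read in CD replicate 3 and 0 in the other libraries. The endothelial markers PECAM1, CDH5 and KDR had at most 5 reads in any library. The part of these shifts in the results below was not tested.

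CD replicate 3 stood apart from the other CD libraries in the proteasome genes. It was the highest of the CD libraries for 33 of 44 members (75%), against 40.1% of all genes tested, and for 12 of 12 core subunits. CD replicate 1 was the lowest for 27 of 44 (61.4%), against 35.2% of all genes. The counts and medians of all members, of the core and of the regulatory particle are therefore given with and without CD replicate 3, as are the members whose call it changes. That library was singled out by these same values. Leaving out the highest CD library necessarily lowers the CD mean of a gene and can narrow its spread. The lower calls gained without it thus describe the dependence on this library and are not a separate result. In this library 41.4% of the reads were on no gene and 9.37% were unmapped, against 31.1% and 31.8% on no gene and 3.54% and 4.33% unmapped in CD replicates 1 and 2. The control libraries, with 4.25% to 18.4% unmapped, spanned a wider range.

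Between CD and control, the differences were small in most proteasome subunits and larger in a few genes. NFE2L1 (1.79-fold) and the activator PSME4 (2.25-fold) increased, and the immunoproteasome subunit PSMB9 (2.62-fold), the regulatory subunit PSMD3 (1.68-fold) and the assembly chaperone PSMG3 (1.67-fold) decreased. In all, 3 members were called higher and 9 lower, while 32 were not called. Called members thus made up 27.3% of the 44, against 47.7% of all genes tested (24.8% higher and 22.9% lower). The median log2 fold change of the members was -0.12, with a range of -1.39 to 1.17, beside 0.06 for all genes, and 33 of 44 lay below the median of all genes. In size, the median change was 0.21 for the members and 0.47 for all genes, and 2 of 44 changed by 2-fold or more, compared with 20.5% of all genes. The CD and control libraries did not overlap for 18 members, 3 with CD above and 15 with CD below. This share of 40.9% stands beside 58.0% of all genes, of which 29.5% had CD above and 28.6% CD below. Without CD replicate 3, 2 members were called higher and 23 lower (56.8% of 44, against 58.6% of all genes, of which 29.2% were lower), and their median was -0.27. Without control replicate 1, 2 were higher and 5 lower (15.9%), and the share of all genes called was also smaller, at 36.3% (18.4% higher and 17.9% lower).

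**Figure D1:**
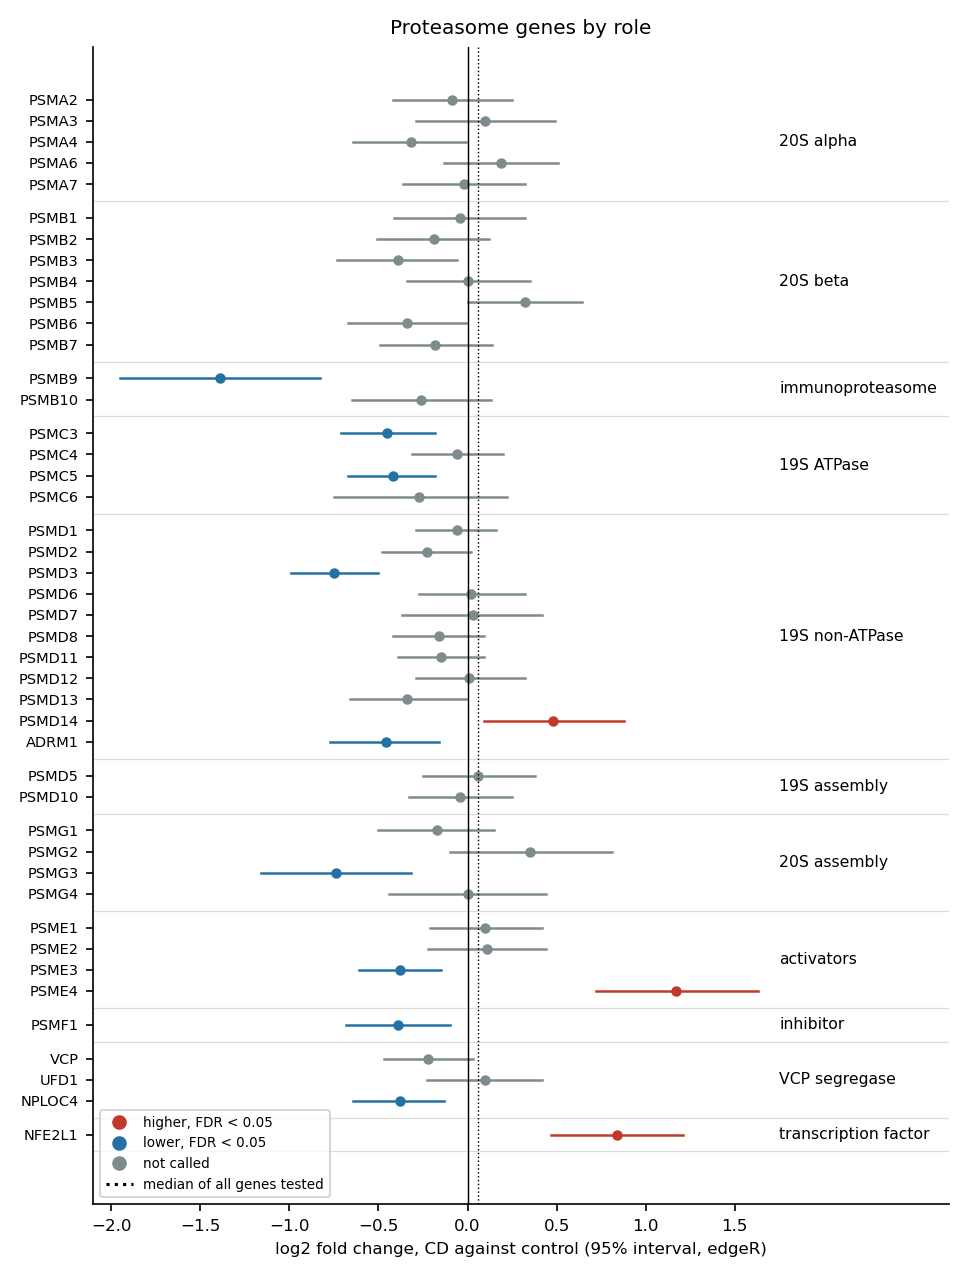
Log2 fold change (CD relative to control, x axis) of the 44 tested members, grouped by role on the y axis; points are edgeR estimates, bars their 95% confidence intervals and colours the call at FDR 0.05. Most estimates lie between -0.5 and 0.5, with PSMB9 (-1.39), PSME4 (1.17) and NFE2L1 (0.84) farthest from 0.

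In the core particle, 0 of 12 subunits were called with edgeR, while 3 had an unadjusted p under 0.05, and DESeq2 and limma-voom called 1 each, PSMB3. The 12 log2 fold changes of the core ran from -0.39 to 0.32 with a median of -0.07, 8 negative and 4 positive. The alpha subunits (5 tested) had a median of -0.02 and the beta subunits (7 tested) of -0.18. Without CD replicate 3, the alpha values ran from -0.51 (PSMA4) to -0.01 (PSMA6) and the beta values from -0.61 (PSMB3) to 0.13 (PSMB5). The sum of the core subunits was 3546, 3693 and 3717 CPM in the control libraries and 3021, 3297 and 4385 CPM in CD replicates 1, 2 and 3. Relative to the control mean, the mean log2 level of the core was -0.31 and -0.21 in CD replicates 1 and 2 and 0.23 in CD replicate 3. The first 2 CD libraries thus lay below all control libraries and the remaining one above them. Without CD replicate 3, 7 of 12 core subunits were called lower and the other 5 were not called (58.3%, against 58.6% of all genes in either direction and 29.2% lower), and the median was -0.31. Without CD replicate 1, the median was 0.04 and PSMB5 was the only core subunit called. The median SD of the core subunits across libraries (log2) was 0.06 in control and 0.28 in CD, against 0.12 and 0.23 for all genes.

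Among the alpha subunits, PSMA6 had the highest and PSMA4 the lowest log2 fold change. PSMA6 was at 134.7, 150.2 and 140.4 CPM in control and at 141.7, 146.1 and 198.7 CPM in CD. The groups overlapped, and its log2 fold change was 0.19 (SE 0.14, edgeR FDR 0.292). PSMA4 measured 287.4, 327.2 and 321.9 CPM in control and 217.7, 230.1 and 301.0 CPM in CD. CD replicate 3 reached into the control range, and the log2 fold change was -0.32 (SE 0.14, edgeR FDR 0.0836).

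The beta subunits held the widest range of the core. PSMB5, the catalytic subunit with chymotrypsin-like activity and the target of the drug bortezomib, was at 735.2, 720.4 and 746.6 CPM in control and at 776.8, 866.1 and 1107.8 CPM in CD. All CD libraries lay above the control ones, and the log2 fold change of 0.32 (SE 0.14) was not called (edgeR FDR 0.0916). It was called with scaling to total counts (0.33, edgeR FDR 0.0458) and without CD replicate 1 (0.44, edgeR FDR 0.0194). Without CD replicate 3 it was 0.13 (edgeR FDR 0.341). PSMB6, the catalytic subunit with caspase-like activity, was at 348.1, 341.1 and 357.2 CPM in control and at 224.1, 266.0 and 336.2 CPM in CD, with a log2 fold change of -0.34 (SE 0.15, edgeR FDR 0.0817). PSMB3, a beta subunit without a catalytic site, measured 360.2, 355.5 and 372.3 CPM in control and 221.9, 265.6 and 340.1 CPM in CD. Its CD values were all below the control values, and its log2 fold change of -0.39 (SE 0.15) missed the threshold (edgeR FDR 0.0545) but was called in 6 of 14 alternative analyses. The trypsin-like catalytic subunit PSMB7 averaged 219.1 and 194.0 CPM in control and CD (log2 fold change -0.18, edgeR FDR 0.329). The 7 core subunits called lower without CD replicate 3 were PSMA2 (-0.30), PSMA4 (-0.51), PSMB1 (-0.31), PSMB2 (-0.40), PSMB3 (-0.61), PSMB6 (-0.54) and PSMB7 (-0.37).

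**Figure D2:**
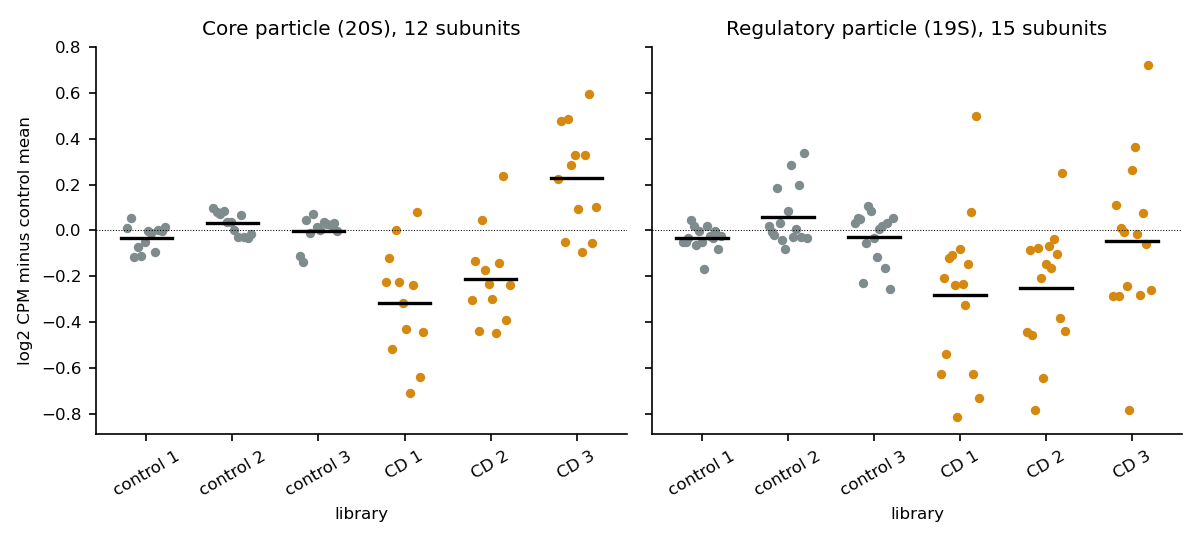
Levels of each tested subunit of the core (12) and the regulatory particle (15) in the 6 libraries, as log2 CPM relative to the control mean (y axis), with black bars for the mean of the particle. The core mean was at -0.31 and -0.21 in CD replicates 1 and 2 and at 0.23 in CD replicate 3, while the regulatory mean was at -0.28, -0.25 and -0.04.

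To separate the level of the whole core from its composition, each subunit was set against the mean of the 12 core subunits in the same library, a comparison chosen after the spread of the CD libraries had been seen. These relative values sum to 0 by construction. On this scale the CD libraries differed little from each other, with a median SD of 0.05 in CD and 0.05 in control. The groups did not overlap for 7 of 12 subunits (58.3%), where the same scale gave 51.4% of all genes, beside 58.0% on the CPM scale. The core subunits make up the mean that is subtracted and the other genes do not, so the shares of 58.3% and 51.4% are not directly comparable. PSMB5, PSMA6 and PSMB4 lay above in CD by 0.40, 0.28 and 0.08 on the log2 scale. PSMB3, PSMB6, PSMA4 and PSMB2 lay below, with mean differences of -0.32, -0.26, -0.24 and -0.11. The ratio of PSMB5 to PSMB6 in CPM was 2.11, 2.11 and 2.09 in control and 3.47, 3.26 and 3.30 in CD. These genes were paired with their values known, so the ratio is a description without a test. CD replicate 3 lay between the other CD libraries in this ratio, although it differed from them in the level of both genes.

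**Figure D3:**
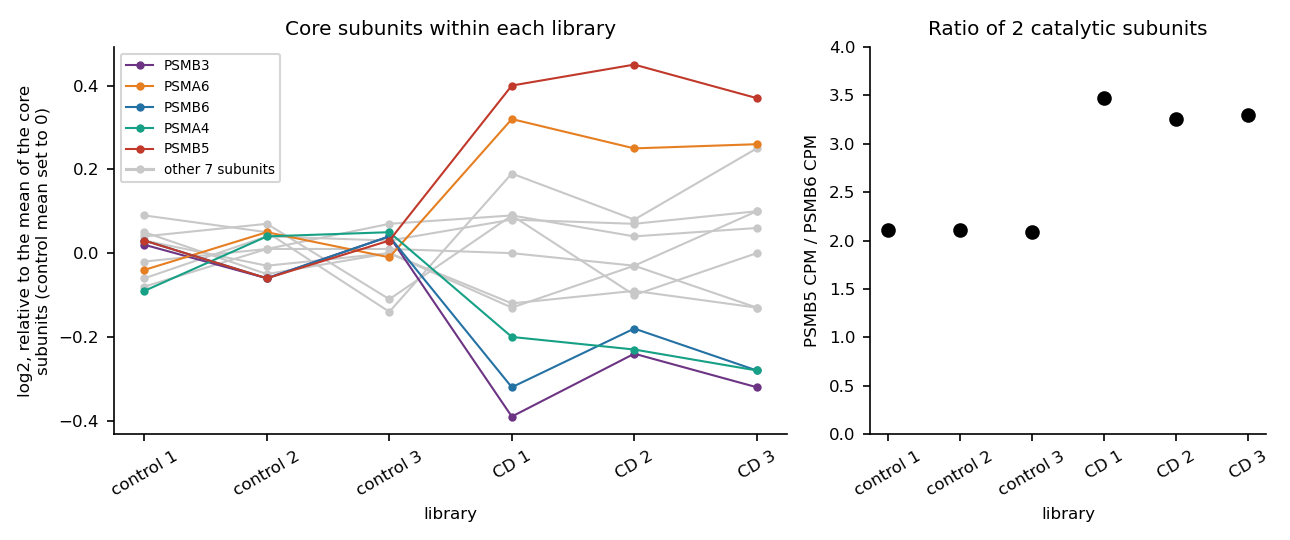
Left, log2 level of the 12 core subunits relative to their mean in the same library (control mean set to 0) in the 6 libraries, with the 5 farthest from 0 in colour. Right, the CPM of PSMB5 divided by that of PSMB6 in each library, which was 2.09 to 2.11 in control and 3.26 to 3.47 in CD.

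Of the immunoproteasome subunits, PSMB9 decreased with CD, PSMB10 was called lower without CD replicate 3 and not over all libraries, and PSMB8 was at the limit of detection. PSMB9 (ENSNVIG00000004695), which replaces PSMB6 in the immunoproteasome, was a low-level gene in these cells at 8.24, 8.31 and 8.32 CPM in control and 2.09, 3.19 and 4.25 CPM in CD, from 115, 115 and 151 reads and 34, 52 and 59 reads. All CD libraries were well below the control libraries, and the log2 fold change was -1.39 (SE 0.25, 95% confidence interval -1.95 to -0.83, edgeR FDR 0.00128). It was called in all 14 alternatives, with log2 fold changes from -1.68 to -1.15. The ratio of PSMB9 to PSMB6 was 0.0237, 0.0244 and 0.0233 in control and 0.00932, 0.0120 and 0.0126 in CD, so the decrease exceeded that of its counterpart in every CD library. PSMB10, which replaces PSMB7, was at 50.1, 52.0 and 51.1 CPM in control and at 33.4, 39.8 and 55.1 CPM in CD (log2 fold change -0.26, SE 0.18, edgeR FDR 0.252). This non-call rests on CD replicate 3, without which PSMB10 was called lower as well (-0.51, edgeR FDR 0.000358). Its ratio to PSMB7 overlapped between the groups, with 0.226, 0.240 and 0.233 in control and 0.208, 0.214 and 0.234 in CD. PSMB8, which replaces PSMB5, had 1, 1 and 0 reads in control and 0, 0 and 0 in CD. In the mink annotation of RefSeq (assembly ASM_NN_V1, not the build of the counts), PSMB8 and PSMB9 are the neighbours of TAP1, a subunit of the peptide transporter for antigen presentation. TAP1 was at 120.3, 113.9 and 134.9 CPM in control and at 97.8, 108.5 and 104.9 CPM in CD (log2 fold change -0.25, SE 0.11, edgeR FDR 0.0977).

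Of the 15 regulatory subunits tested, 1 was called higher and 4 lower (33.3%, against 47.7% of all genes), and the median log2 fold change was -0.16 (range -0.75 to 0.48). The groups did not overlap for 7 of 15 (46.7%, against 58.0% of all genes), all with CD below, and 14 of 15 log2 fold changes lay under the median of all genes. The sum of the regulatory subunits was 3981, 4058 and 4190 CPM in control and 3071, 3321 and 3614 CPM in CD, so that all CD libraries were below the control ones. CD replicate 3 was the highest CD library for 11 of 15 regulatory subunits, and its log2 ratio to CD replicate 1 had a median of 0.25 (range -0.14 to 0.60) over them, beside 0.54 (range 0.45 to 0.65) over the core subunits. For 31 cytosolic ribosomal protein genes, added as a comparison after the spread was seen, the same ratio had a median of 0.65 and CD replicate 3 was the highest CD library for 30. The part of RNA quality or library preparation in this difference was not tested. Without CD replicate 3, 8 regulatory subunits were called lower and the other 7 were not called (53.3%, against 58.6% of all genes in either direction and 29.2% lower), and their median was -0.26. Without control replicate 1, as without control replicate 3, only 3 were called, all lower (20%, against 36.3% and 35.9% of all genes).

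The ATPases form the ring that unfolds substrates and opens the gate of the core, and 2 of the 4 tested decreased, beside 47.7% of all genes called and 22.9% lower. PSMC3 was at 344.8, 361.8 and 365.9 CPM in control and at 231.6, 262.5 and 292.8 CPM in CD, with all CD libraries below (log2 fold change -0.45, SE 0.12, edgeR FDR 0.0108). PSMC5 measured 206.6, 208.2 and 218.6 CPM in control and 145.3, 154.0 and 173.0 CPM in CD (log2 fold change -0.42, SE 0.11, edgeR FDR 0.00988). Both were called in all 14 alternatives. PSMC4 overlapped between the groups, with 220.2, 226.9 and 236.5 CPM in control and 197.0, 215.0 and 245.8 CPM in CD, and its log2 fold change of -0.06 had a 95% confidence interval of -0.31 to 0.20. PSMC6 averaged 21.8 and 18.2 CPM (log2 fold change -0.27, edgeR FDR 0.337) and was called lower without CD replicate 3 (-0.46, edgeR FDR 0.0245).

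The non-ATPase subunits include the scaffold, the ubiquitin receptors and the deubiquitinase of the regulatory particle, and of the 11 tested, 1 was called higher and 2 lower (27.3%, against 47.7% of all genes). PSMD3 (ENSNVIG00000003254), a scaffold subunit of the lid, had the lowest value of either particle. It was at 481.3, 455.9 and 511.1 CPM in control and at 274.7, 308.7 and 280.0 CPM in CD, so that CD replicate 3 lay between the other CD libraries in this gene. The log2 fold change was -0.75 (SE 0.11, 95% confidence interval -0.99 to -0.50, edgeR FDR 0.000391) and ranged from -0.83 to -0.70 over the 14 alternatives, all of which called it. ADRM1, a ubiquitin receptor, measured 517.6, 514.3 and 546.7 CPM in control and 316.6, 388.2 and 439.3 CPM in CD (log2 fold change -0.46, SE 0.14, edgeR FDR 0.0171). All its CD libraries were below the control ones, but the call was lost without control replicate 1 and without control replicate 3 (highest edgeR FDR 0.0668).

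PSMD14 encodes the deubiquitinase that removes ubiquitin chains from substrates as they enter, and it was the only subunit called higher. Its levels were 54.8, 73.3 and 48.6 CPM in control and 82.0, 69.1 and 95.8 CPM in CD, so that CD replicate 2 lay below control replicate 2. The log2 fold change of 0.48 (SE 0.18, edgeR FDR 0.0453) was no longer called in 7 of 14 alternatives, among them those without CD replicate 1 or without CD replicate 3 (0.32, edgeR FDR 0.0671). Another 3 subunits had CD levels below all control levels without a call, the scaffold subunits PSMD2 (log2 fold change -0.23, edgeR FDR 0.112), PSMD11 (-0.15, edgeR FDR 0.282) and PSMD13 (-0.34, edgeR FDR 0.0807). The remaining 5 non-ATPases, PSMD1, PSMD6, PSMD7, PSMD8 and PSMD12, overlapped between the groups, with log2 fold changes of -0.16 to 0.03. Without CD replicate 3, PSMD2 (-0.26), PSMD13 (-0.53) and PSMD8 (-0.28) were called lower.

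Relative to the mean of the regulatory particle in the same library, the groups did not overlap for 6 of 15 subunits (40%, against 58.3% of all genes on that scale). As for the core, these subunits make up the mean that is subtracted, so the shares are not directly comparable. PSMD14 and PSMD6 lay above in CD, by 0.68 and 0.20 on the log2 scale, and PSMD3, ADRM1, PSMC3 and PSMC5 below, with differences of -0.55, -0.28, -0.26 and -0.23. The median SD of these relative values was 0.14 in CD and 0.08 in control.

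Among the dedicated assembly chaperones, PSMG3 alone was called over all libraries, and PSMG1 and PSMG4 were called lower as well without CD replicate 3. The PSMG proteins help the alpha ring to form. PSMG3 was at 146.5, 160.2 and 145.9 CPM in control and at 65.0, 88.7 and 118.1 CPM in CD, with every CD library below the control ones (log2 fold change -0.74, SE 0.19, edgeR FDR 0.00912). It was called in all 14 alternatives, with log2 fold changes of -1.01 to -0.53. PSMG4, the partner of PSMG3, averaged 150.5 and 150.6 CPM with overlapping libraries (log2 fold change 0.00, SE 0.20, edgeR FDR 0.997). It was called lower once CD replicate 3 was left out (-0.29, edgeR FDR 0.0367). PSMG2, which pairs with PSMG1, was at 17.2, 19.8 and 14.2 CPM in control and at 20.0, 17.6 and 27.8 CPM in CD (log2 fold change 0.35, SE 0.21, edgeR FDR 0.181), and PSMG1 had a log2 fold change of -0.17 (edgeR FDR 0.347), or -0.36 without CD replicate 3 (edgeR FDR 0.00732). Of the chaperones of the regulatory particle, PSMD5 measured 31.5, 37.2 and 32.0 CPM in control and 37.9, 30.4 and 36.9 CPM in CD, and PSMD10 35.5, 37.7 and 35.4 CPM and 34.9, 31.5 and 39.0 CPM. Their libraries overlapped, with log2 fold changes of 0.06 (95% confidence interval -0.25 to 0.38) and -0.04 (-0.33 to 0.25).

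The activators, which bind the core in place of the regulatory particle, moved in different directions. PSME4 (ENSNVIG00000009270), a large nuclear activator known for its role with acetylated histones, had the highest log2 fold change of all members. It was at 34.6, 36.1 and 28.9 CPM in control and at 100.4, 66.3 and 57.4 CPM in CD. All CD libraries were above the control ones, with CD replicate 1 the highest, and the log2 fold change was 1.17 (SE 0.20, 95% confidence interval 0.72 to 1.63, edgeR FDR 0.00106). Over the 14 alternatives it was 0.91 to 1.29 and called in each. PSME3, the activator of the nucleus that acts without ubiquitin, decreased: 215.7, 209.0 and 214.2 CPM in control and 167.2, 169.6 and 154.1 CPM in CD (log2 fold change -0.38, SE 0.10, edgeR FDR 0.0116). Its call was lost without control replicate 1 (edgeR FDR 0.0602). PSME1 and PSME2 form the activator that interferon induces, and they were not called, with log2 fold changes of 0.10 and 0.11. The ratio of PSME1 to PSME2 was 0.933, 0.890 and 0.866 in control and 0.893, 0.908 and 0.876 in CD. PSMF1, an inhibitor of the core, measured 42.1, 39.8 and 43.7 CPM in control and 34.2, 33.5 and 28.4 CPM in CD. It was called lower (log2 fold change -0.39, SE 0.13, edgeR FDR 0.0327), but not in 5 of 14 alternatives, among them those leaving out any control replicate.

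**Figure D4:**
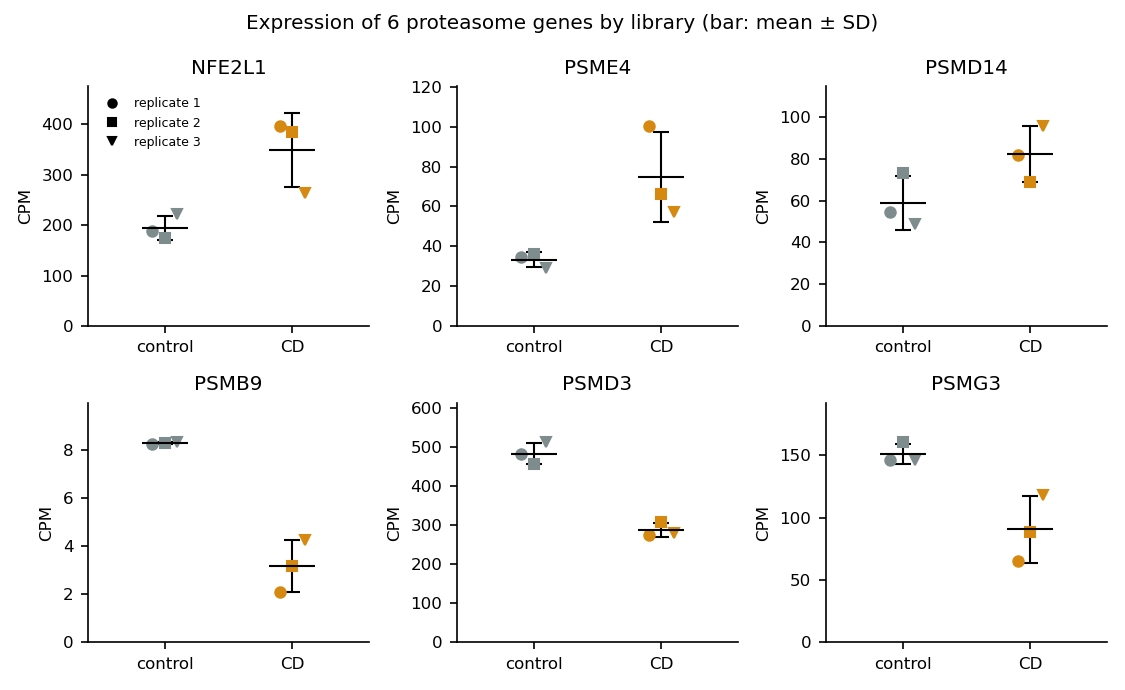
CPM (y axes, from 0) in each of the 3 control and 3 CD libraries for 6 selected members, with bars for the group mean ± SD (n = 3). All CD values lie above the control values for NFE2L1 and PSME4 and below them for PSMB9, PSMD3 and PSMG3.

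NFE2L1 (ENSNVIG00000005857) was the transcription factor among the members. It is held in the ER membrane, extracted by VCP, deglycosylated by NGLY1 and cleaved by the protease DDI2 before it enters the nucleus, and has also been described as a sensor of cholesterol in that membrane. Its levels were 188.4, 174.3 and 221.3 CPM in control and 397.0, 384.8 and 264.2 CPM in CD. All CD libraries were above the control ones, and CD replicate 3, in which the core subunits were highest, had the lowest NFE2L1 of the CD libraries. The log2 fold change was 0.84 (SE 0.17, 95% confidence interval 0.47 to 1.21, edgeR FDR 0.00234), with 0.73 to 0.97 over the 14 alternatives, all of which called it. The proteasome subunits, many of which are targets of NFE2L1 in other cells, had 1 call in the same direction and 4 in the other among the 15 regulatory subunits and 0 calls among the 12 core subunits with edgeR, where 24.8% of all genes were higher and 22.9% lower. The higher call, that of PSMD14, was lost in 7 of 14 alternatives. Without CD replicate 3, 8 regulatory and 7 core subunits were called lower, and the others were not called. In that fit 58.6% of all genes were called and 29.2% were lower. Only the RNA of NFE2L1 was measured, not its processing or activity, and its part in the levels of the subunits was not tested.

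VCP is the segregase that pulls proteins out of membranes and complexes for the proteasome, with UFD1 and NPLOC4 as its ubiquitin-binding cofactors. VCP itself was at 967.2, 1015.0 and 1067.7 CPM in control and at 869.5, 912.9 and 834.3 CPM in CD. Its CD levels were all lower than the control levels, and its log2 fold change of -0.22 (SE 0.11, 95% confidence interval -0.47 to 0.03) was not called (edgeR FDR 0.131), nor in any alternative. NPLOC4 was called lower, with 593.0, 535.8 and 625.5 CPM in control and 439.4, 475.3 and 429.0 CPM in CD (log2 fold change -0.38, SE 0.11, edgeR FDR 0.0188). This call was lost without control replicate 1, without control replicate 3 and with the replicate number as a block (highest edgeR FDR 0.0848). NPLOC4 overlaps TSPAN10 in the RefSeq annotation, so its count is uncertain if the counting did not use strand. UFD1 was at 81.7, 92.2 and 87.8 CPM in control and at 79.9, 86.1 and 113.7 CPM in CD (log2 fold change 0.10, SE 0.15, edgeR FDR 0.618), and it too overlaps another gene, as do PSMA8, PSMB1, PSMB4, PSMD1 and PSME1.

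**Figure D5:**
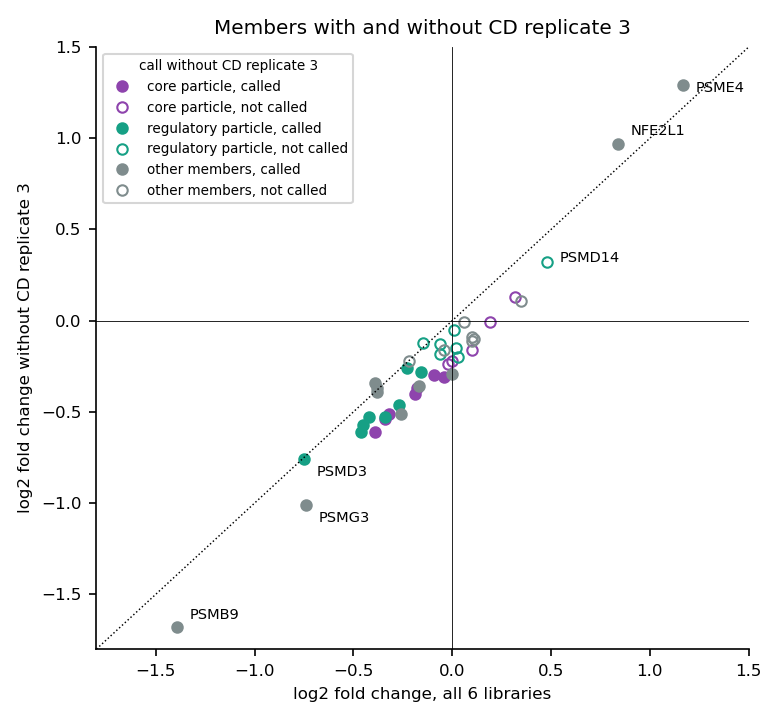
Log2 fold change of each tested member over all 6 libraries (x axis) and without CD replicate 3 (y axis), with the dotted line marking equal values. The core subunits lie below the line, their median moving from -0.07 to -0.31, while NFE2L1 (0.84 and 0.97) and PSME4 (1.17 and 1.29) lie above it.

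The other genes of the ubiquitin-proteasome pathway were taken from 7 lists of 68 symbols. Of the 58 tested, 20 were called higher and 10 lower, and their median was 0.13 on the log2 scale. The share called, 51.7%, was close to the 47.7% of all genes (34.5% against 24.8% higher and 17.2% against 22.9% lower), and the counts of the single lists, of 4 to 20 genes each, stand beside the same background. The number called lower was 5 with any control replicate left out, where 17.8% to 19.2% of all genes were lower. Without CD replicate 2 it was 6, where 20.6% of all genes were lower. Without CD replicate 3, 20 were higher and 12 lower, where 29.3% and 29.2% of all genes were. The single lists are given over all 6 libraries. Genes for ubiquitin and its activation had 0 calls among 4 tested, with edgeR as with DESeq2 and limma-voom, and 0 had an unadjusted p under 0.05. Of 11 genes listed as proteasome-bound factors, 3 were higher and 1 lower. The lower one was PSMC3IP (log2 fold change -0.57, edgeR FDR 0.0176), named for its binding to PSMC3 but known for its role in homologous recombination rather than as a proteasome factor. The largest change was that of ZFAND5, a zinc-finger protein that stimulates the proteasome, with 31.5, 32.2 and 27.7 CPM in control and 69.3, 64.8 and 80.5 CPM in CD (log2 fold change 1.23, SE 0.13, edgeR FDR 5.51e-05). Of the 6 shuttle receptors, which carry ubiquitinated proteins to the proteasome, 2 were lower and the other 4 were not called. UBQLN4 was at 154.4, 142.2 and 158.0 CPM in control and at 121.4, 133.8 and 109.4 CPM in CD (log2 fold change -0.32, SE 0.12, edgeR FDR 0.0446).

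Cofactors of VCP and genes of ER-associated degradation had 8 higher and 3 lower of 20 tested (55%, against 47.7% of all genes). UBXN2A, a VCP cofactor of low level, was at 1.22, 1.45 and 1.38 CPM in control and at 9.77, 6.07 and 5.62 CPM in CD (log2 fold change 2.40, SE 0.28, edgeR FDR 8.37e-05). Every CD library was well above the control libraries in this gene. Of 5 genes for the degradation of NFE2L1, 3 were higher and the other 2 were not called, the largest change being that of FBXW7, the substrate receptor of a ubiquitin ligase, from 12.8, 14.6 and 11.5 CPM to 28.1, 21.1 and 33.5 CPM (log2 fold change 1.09, SE 0.19, edgeR FDR 0.00123). Among the enzymes that process NFE2L1, DDI2 was at 9.03, 9.90 and 9.26 CPM in control and at 8.67, 4.79 and 2.95 CPM in CD (log2 fold change -0.77, SE 0.32, edgeR FDR 0.0724). NGLY1 measured 12.7, 15.7 and 12.0 CPM in control and 18.7, 15.7 and 18.7 CPM in CD (log2 fold change 0.40, SE 0.17, edgeR FDR 0.0799). Neither was called.

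Among the relatives and partners of NFE2L1, 4 were higher and 2 lower of 7 tested. NFE2L2, the related factor of the oxidative stress response, was at 96.9, 93.0 and 83.0 CPM in control and at 146.8, 151.3 and 154.9 CPM in CD (log2 fold change 0.73, SE 0.11, edgeR FDR 0.00041). NFE2L3 changed in the other direction, from 7.52, 8.17 and 5.95 CPM to 3.38, 3.44 and 3.03 CPM (log2 fold change -1.13, SE 0.20, edgeR FDR 0.00133). BACH2, a repressor of low level that binds the same kind of element, had 5, 11 and 9 reads in control and 82, 44 and 25 reads in CD (log2 fold change 2.54, SE 0.45, edgeR FDR 0.00121). Of the antigen-processing genes that interferon induces with the immunoproteasome, 2 were higher and 2 lower of 7 tested (57.1%, against 47.7% of all genes). The higher ones were IRF1 and B2M, each with a log2 fold change of 0.46 (edgeR FDR 0.0151 and 0.0472). The lower ones were ERAP1 (log2 fold change -0.97, edgeR FDR 0.000804) and NLRC5. NLRC5, an activator of such genes, had 18, 11 and 22 reads in control and 4, 5 and 6 reads in CD (log2 fold change -1.75, SE 0.37, edgeR FDR 0.00331).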

How the data were processed

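The authors isolated poly(A) mRNA, made libraries with the Nextera XT kit, trimmed reads with fastp 0.20.1, aligned them to the mink assembly NNQGG.v01 with STAR 2.7.2a and used DESeq2 1.30.1 in R 4.0.3. The program that counted the reads and its use of strand are not given in the sources used here. The deposited table holds raw counts for 24526 genes, and the read totals in 4 further rows, which belong to no gene (29.3% to 47.2% of reads), were left out. The deposited normalized files were not used, because their values stand beside gene identifiers in another order than the counts.

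Tests on the counts used edgeR 4.0.16 (R 4.3.3; filterByExpr, minimum count 10 and minimum total 15; TMM; robust quasi-likelihood fit with the condition as the only term) and adjusted over 12148 genes, of which 2059 have no symbol. The median SE was 0.18 for all genes and 0.14 for the members, which is the precision of this depth with 3 libraries per group. The scripts were tested on simulated data. The 14 alternatives were DESeq2 1.42.0, limma-voom (limma 3.58.1), 3 other scalings, 2 other filters, a replicate block and each library left out. The members and lists were chosen with earlier results of these data known. Levels in every library are given for NFE2L1, VCP, the immunoproteasome subunits, the highest and lowest member of each role, members whose call changed in 3 or more alternatives and the largest called change of each other list, with NFE2L2, NFE2L3, DDI2 and NGLY1. Levels of PSMB6, PSMC5, ADRM1 and TAP1 were added with their values known, and so were the within-particle comparison, the ratios and the ribosomal proteins. Of the members, 46 of 47 were matched by symbol to the RefSeq annotation of assembly ASM_NN_V1, from which no coordinates were taken.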

Additional observations from a re-analysis of the deposited data

How the results depend on the processing

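The calls of NFE2L1, PSME4, PSMB9, PSMC3, PSMC5, PSMD3 and PSMG3 held in all 14 alternatives. With each library left out, the number of members called lower ranged from 5 (without control replicate 1) to 23 (without CD replicate 3), the number of other pathway genes called lower from 5 to 12, and the median log2 fold change of the core from -0.306 to 0.037, against 9, 10 and -0.065. That of the regulatory particle stayed between -0.259 and -0.142. The other scalings, filters and tools gave 9 or 10 members lower and 2 or 3 higher. PSMG4 turned from 0.00 to 0.20 without CD replicate 1 and to a called -0.29 without CD replicate 3. Samples with the same replicate number did not deviate together (correlations of -0.0197, -0.396 and -0.197 over 12148 genes), and the main fit does not pair them. The highest correlations were 0.309 (control replicate 3 with CD replicate 2) and 0.23 (control replicate 2 with CD replicate 3). With 3 libraries per group, each centred on its group mean, these values cannot exclude a shared culture or batch. With the replicate number as a block, 3 members were higher and 8 lower, PSMF1 and NPLOC4 losing their calls and PSMB3 gaining one. Counts of a few reads, as for PSMB8, cannot show a difference at this depth.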
